A study of Homo sapiens with 25 samples.

Results

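The widest blocks of dimethylated lysine 4 on histone H3 (H3K4me2) in human embryonic stem cells were followed through differentiation to pharyngeal foregut endoderm. Overlapping H3K4me2 peaks of stem cell replicate 1 were merged, and a merged interval on chromosomes 1 to 22 or X was kept as a broad domain if it spanned 4 kb or more and if at least 50% of its bases lay in merged peaks of stem cell replicate 2. No peaks of a list overlapped, so each merged interval was 1 peak as called by the authors. Of 116047 merged intervals, 70 reached 4 kb and 69 passed both conditions. The members were chosen by their H3K4me2 width and cover in these libraries, so both are given as a description.

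H3K4me2 sits around gene starts and at enhancers, in active genes and in genes that are switched off but poised. H3K27ac, acetylation of lysine 27, accompanies active promoters and enhancers. H3K27me3, trimethylation of the same residue by Polycomb repressive complex, covers silent developmental genes, and in stem cells many such genes carry it together with methylated lysine 4 (bivalent chromatin). Since 1 residue cannot carry both lysine 27 marks, peaks of both over the same bases come from different histone tails, alleles or cells.

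Every group was grown from the H1 line of human embryonic stem cells, with no genetic change given in the labels. The stages were the undifferentiated cells (hESC), definitive endoderm made from them (hDE), then anterior foregut endoderm (hAFE) and, last, its pharyngeal foregut derivative (hPFE). The labels used here give no day or inducing agent for the stages. The series holds 25 samples, of which 21 have a peak list from chromatin immunoprecipitation sequencing and 4 are inputs. Each stage had 2 libraries per mark, except that H3K4me2 of hAFE and hPFE and H3K27me3 of hAFE had 1. The hESC H3K27ac and H3K27me3 libraries were re-analysed from an earlier deposit, so batch and stage cannot be told apart in comparisons of these marks with hESC. Replicate 1 of H3K27me3 in hESC, hDE and hPFE carries the word millipore in its file name, and whether this names another antibody is not given in the sources used here.

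The H3K4me2 lists held 87357 to 116210 peaks. Read depth is unknown, so an absent peak is not proof of an absent mark. The hESC lists covered 50.7 and 51.0 Mb in all and the later lists 34.6 to 37.3 Mb, so later intervals were narrower or fewer across the genome, not at the domains alone. H3K27ac at gene ends, called where every library of the stage had a peak, was found at 7 of 7 stem cell markers in hESC, at 6 of 6 definitive endoderm markers in hDE, and at 4 and 5 of 8 foregut and pharyngeal markers in hAFE and hPFE. PAX9 and TBX1, which mark pharyngeal endoderm, were without it at every stage, and the neural markers PAX6, SOX1 and OLIG2 were without it throughout. Of 3 mesoderm and heart markers TBX6 had it in hESC, hDE and hPFE, and of 3 blood and endothelium markers KDR had it in hESC. Of the 7 stem cell markers 5 still had it in hDE (NANOG, LIN28B, DNMT3B, PRDM14 and L1TD1), and 2 in hAFE and hPFE. Bulk chromatin does not tell a mark on fewer cells from a lower level in each.

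The 69 domains were 4009 to 7077 bp wide in replicate 1, with a median of 4414 bp. The widest lay inside NFIB (chr9:14343961-14351037), which encodes a nuclear factor I transcription factor. Next came CSMD3, a large membrane protein gene (6792 bp), LHX4, a LIM homeobox gene (6753 bp), and FOXB1, a forkhead gene of the developing brain (6629 bp). The intervals nearest below the limit measured 3981, 3991 and 3996 bp, and those nearest above it 4009 bp (SHC1), 4023 bp (HTR7) and 4025 bp (EXT1). The interval that failed on cover, chr5:43308906-43313298, was 47.4% covered by replicate 2, and the lowest member, at the retinol acyltransferase gene LRAT, 67.4%. Domains were found on 20 chromosomes, most often on chromosome 3 with 7, and none lay on X.

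Width depended on the replicate. In replicate 2 the widest interval over each domain had a median of 3687 bp (1131 to 7125 bp), and 30 of the 69 domains were overlapped there by an interval of 4 kb or more, against 1.60% of the 10161 replicated hESC intervals of 1 kb or more. When replicate 2 gave the intervals and replicate 1 the cover, the rule found 114 domains, and 30 of these overlapped a member. The list is therefore that of the widest intervals of 1 library, present but often split or narrower in the other.

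The domains fell into classes by the lysine 27 marks, a mark being called where both hESC libraries covered at least 10% of the domain. H3K27me3 alone was present at 31 domains (44.9%, 95% exact binomial interval 32.9 to 57.4, counting error only) and H3K27ac alone at 28 (40.6%, 28.9 to 53.1). LHX4 and SALL1, a zinc finger gene, had both, and 8 had neither under this rule. Among all replicated intervals of 1 kb or more the shares were 25.8% for H3K27me3 alone, 44.4% for H3K27ac alone, 0.600% for both and 29.2% for neither. The H3K27me3 share was higher in wider intervals, with 24.3% of 8878 intervals of 1 to 2 kb and 35.7% of 1214 of 2 to 4 kb. This split also rested on the replicate: H3K27me3 alone took 76.3% of the 114 domains of replicate 2, and 17 of the 30 that were 4 kb or more in both.

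Genes at the H3K27me3 domains included transcription factors, signalling genes and cell surface genes. The 8 widest of the 31 were at NFIB, CSMD3, FOXB1, ONECUT1 (a liver and pancreas homeobox gene), NR4A3 (an orphan nuclear receptor), ADCYAP1 (the neuropeptide PACAP), the non-coding genes LOC124901181 and LINC02106, and SOX9 (a high mobility group factor of cartilage and many epithelia). H3K27me3 covered ADCYAP1 whole in both hESC libraries (100% and 100%) and FOXB1 least of these (28.6% and 50.9%). Signalling genes in the class were WNT5A, a Wnt ligand, PDGFRA, a growth factor receptor, and HES7 and HEY2, transcriptional repressors downstream of Notch. No H3K27ac peak touched 26 of the 31 in either hESC library.

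The 8 widest H3K27ac domains were at TALAM1 with the MALAT1 body (non-coding RNAs of nuclear speckles), CTBP2 (a transcriptional corepressor), SETD5, DUSP6 (a phosphatase of ERK kinases), ATXN7L3B, GCNT2 (a glycan-branching enzyme), NR6A1 (an orphan nuclear receptor) and TRA2B (a splicing factor). Some further members were stem cell genes: LIN28B, an RNA-binding inhibitor of let-7 processing, DPPA4, APELA, the ligand of the apelin receptor, and PODXL, a sialomucin that carries stem cell surface antigens. Of 24 listed pluripotency genes, only APELA, PODXL and OTX2 had a domain at a gene end, and OTX2 was in the H3K27me3 class. The LIN28B and DPPA4 domains lay inside the gene, and no domain was at POU5F1, NANOG or SOX2. H3K27ac covered 97.1% and 95.2% of the domain in UGP2, the UDP-glucose synthesis enzyme, but 12.3% and 17.7% at GRIA4, a glutamate receptor subunit, so the class spans nearly full to slight cover.

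**Figure D1:**
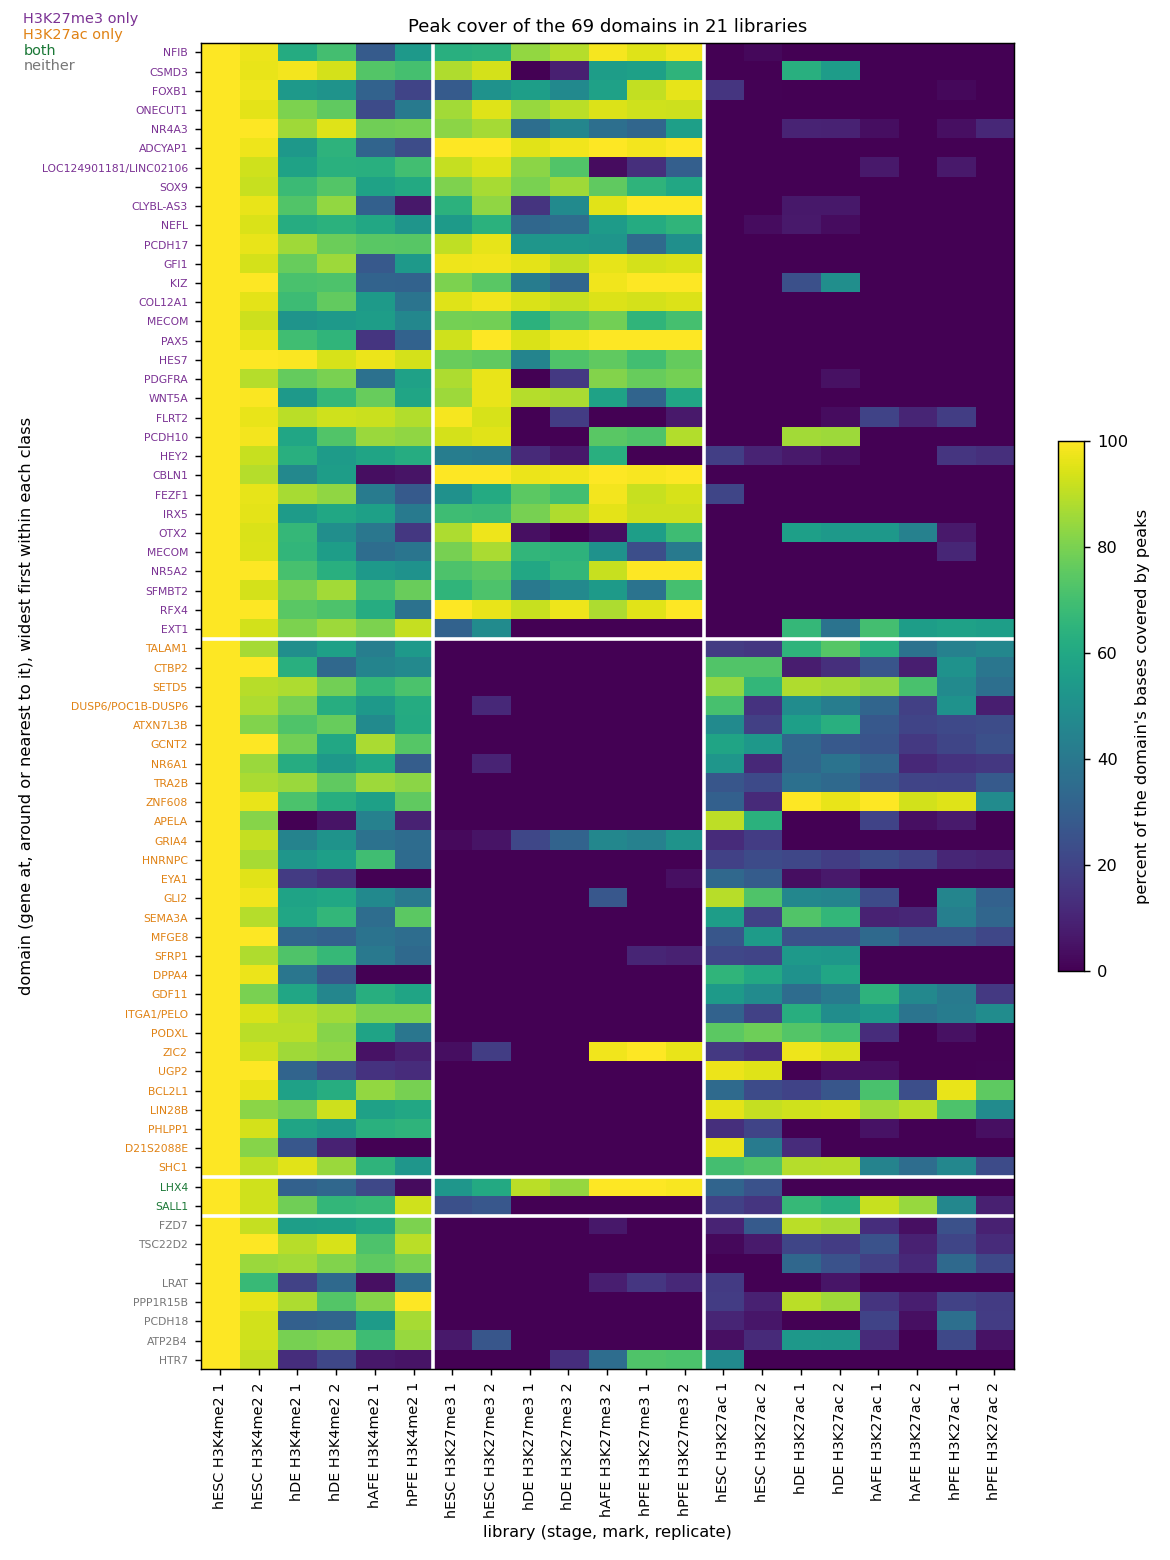
Percent of each domain's bases covered by peaks (colour, 0 to 100) in 21 libraries (columns), with the 69 domains in rows by hESC class and width (a row with more than 2 gene names is left without a label). H3K4me2 thins after hESC in all classes, H3K27me3 stays over most of the upper block, and H3K27ac leaves several rows of the second block.

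Of the 69 domains, 41 were within 1 kb of the start of a protein-coding gene, or of either end where its strand was unknown. Another 21 overlapped a coding gene away from such an end, and some of these can reach the far end of the gene. A further 4 were at such an end of a non-coding gene, and 3 had only a nearest coding gene (KIZ at 21438 bp, MECOM at 1707 bp and EYA1 at 132499 bp). The domain nearest KIZ overlapped the non-coding gene LINC00237. By this gene-end rule a domain reached 43 of 19974 protein-coding genes, 0.215%. Of 349 genes in 13 lists of lineage, pathway and control genes, 9 did (2.58%). These were 3 of 24 pluripotency genes (APELA, OTX2, PODXL), 2 of 19 liver, pancreas and intestine genes (ONECUT1, SOX9), 2 of 46 neural transcription factors (PAX5, FEZF1), 1 of 28 mesoderm, heart, blood and endothelium genes (HEY2), and 2 of 59 pathway genes (HES7, and HEY2 again). None of 39 HOX genes, 17 definitive endoderm, 29 anterior foregut and pharyngeal, 14 primitive streak or 24 housekeeping genes was at a domain. A listed gene with a domain inside it but away from such an end is not in these counts. Such genes were WNT5A, DUSP6, GLI2 and SFRP1 of the pathway list and LIN28B, DPPA4 and ZIC2 of the pluripotency list.

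The position of the domains on the gene is given by class. Strand was known where RefSeq (GRCh38.p14) gave a promoter, and a gene start of known strand lay within 5 kb of 19 H3K27me3 domains and of 18 H3K27ac domains. Of the 19, 11 spanned the start, 6 lay downstream and 2 upstream. Of the 18, 2 spanned the start (APELA and GRIA4) and 16 lay downstream, beginning 279 to 3979 bp after it with a median of 1346 bp, and none lay upstream. Among all replicated intervals of 1 kb or more near such a start, 27.5% of the H3K27me3 class spanned it and 51.8% lay downstream, and 12.3% and 66.5% of the H3K27ac class did so. The order of the classes was thus also seen in the other intervals, most of which are narrower, and it was not tested. The other 10 H3K27ac domains had no such start within 5 kb, with GCNT2, LIN28B and ITGA1 with PELO 34457, 14919 and 10706 bp from the nearest. In the 11 H3K27me3 domains across a start, a median of 3008 bp lay upstream and 1618 bp downstream. FOXB1 (6523 bp upstream of 6629), PAX5 and PDGFRA extended almost wholly upstream, and ADCYAP1 downstream (4813 of 5380 bp). The table holds 1 start per gene, so a domain inside a gene can be at another start.

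The sequences below show 5 starts that lay inside their domains and whose marks changed or stayed in different ways. They are the 250 bases before the RefSeq start (GRCh38.p14), 5′ to 3′ on the gene's strand, with CG dinucleotides in capitals, since CpG-rich promoters are known to attract lysine 4 methylation and Polycomb in stem cells. HES7, FLRT2 and OTX2 were in the H3K27me3 class, APELA and GRIA4 in the H3K27ac class.
HES7, chr17:8124107-8124356, minus strand: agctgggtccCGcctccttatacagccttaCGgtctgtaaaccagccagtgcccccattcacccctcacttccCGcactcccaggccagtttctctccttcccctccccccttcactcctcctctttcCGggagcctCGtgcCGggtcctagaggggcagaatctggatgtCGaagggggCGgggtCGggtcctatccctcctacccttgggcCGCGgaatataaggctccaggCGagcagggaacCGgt
FLRT2, chr14:85529894-85530143, plus strand: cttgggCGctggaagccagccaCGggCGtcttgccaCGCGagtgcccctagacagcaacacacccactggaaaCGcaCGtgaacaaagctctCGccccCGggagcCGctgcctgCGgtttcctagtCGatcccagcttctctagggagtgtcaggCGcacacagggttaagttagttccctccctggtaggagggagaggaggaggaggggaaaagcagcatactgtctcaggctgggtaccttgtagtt
OTX2, chr14:56810480-56810729, minus strand: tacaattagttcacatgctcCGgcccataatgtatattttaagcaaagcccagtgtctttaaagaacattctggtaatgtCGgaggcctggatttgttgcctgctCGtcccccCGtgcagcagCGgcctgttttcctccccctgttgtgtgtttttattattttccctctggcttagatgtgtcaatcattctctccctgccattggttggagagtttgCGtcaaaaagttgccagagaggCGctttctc
GRIA4, chr11:105610456-105610705, plus strand: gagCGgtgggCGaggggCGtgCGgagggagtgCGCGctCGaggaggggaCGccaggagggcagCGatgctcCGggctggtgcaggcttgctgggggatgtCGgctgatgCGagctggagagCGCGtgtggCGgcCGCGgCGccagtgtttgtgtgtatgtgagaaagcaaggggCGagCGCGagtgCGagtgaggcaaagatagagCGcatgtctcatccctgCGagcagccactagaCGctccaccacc
APELA, chr4:164876928-164877177, plus strand: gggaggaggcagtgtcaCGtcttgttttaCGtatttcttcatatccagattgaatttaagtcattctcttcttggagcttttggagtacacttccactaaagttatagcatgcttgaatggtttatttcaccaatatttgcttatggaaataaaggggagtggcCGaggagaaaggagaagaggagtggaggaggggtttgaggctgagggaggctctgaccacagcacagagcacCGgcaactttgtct
The APELA stretch held 4 CG dinucleotides at 45.2% GC, OTX2 7 at 47.2%, HES7 and FLRT2 13 each, and GRIA4 25 at 67.6%. A wide block was thus found over CpG-poor starts too. Over the 300 bases from 250 before to 50 after the start, the 29 genes at a domain with a RefSeq promoter had a median of 21 CG and 62.7% GC, and all 15812 promoters 22 and 62.7%.

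By median, H3K4me2 at the domains was narrower at every later stage than in either hESC replicate. The replicate 1 widths chose the members, so a lower value in any other list is partly built in. In hESC replicate 2 the median was already 3687 bp. The widest interval over a domain had a median of 1917 and 1609 bp in hDE replicates 1 and 2, 1365 bp in hAFE and 1609 bp in hPFE. As a share of the hESC width this was a median of 41.6%, 37.0%, 28.9% and 32.4%. In intervals of 2 to 4 kb it was 41.0 to 53.0% and in those of 1 to 2 kb 58.0 to 67.5%. The sets were cut by the replicate 1 width that is also the divisor, so their order is built in and is no result. It was the same in hESC replicate 2 with no change of stage, at 80.8%, 92.7% and 100.4% from the widest set to the narrowest.

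**Figure D2:**
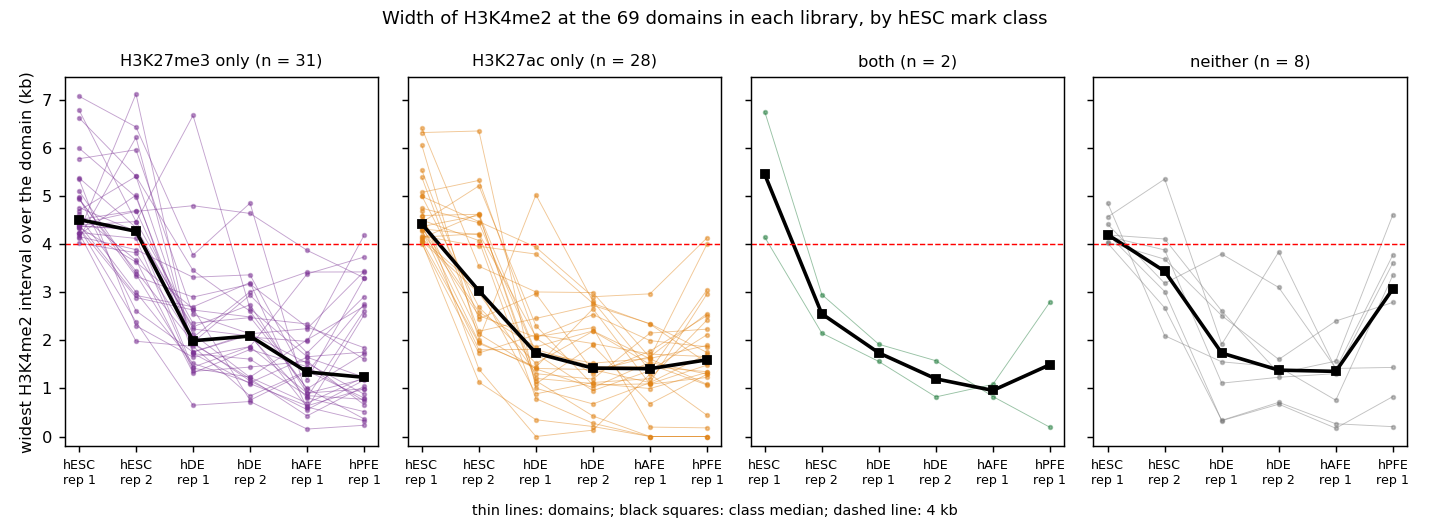
Widest H3K4me2 interval over each domain (kb) in the 6 H3K4me2 libraries, by hESC class: thin lines are domains, black squares the class median, the dashed line 4 kb. Many domains are already below 4 kb in hESC replicate 2 (30 of 69 are not). Few reach it later: 3 domains in hDE replicate 1, 2 in hDE replicate 2, none in hAFE and 4 in hPFE. Only HES7 (purple) reaches it in both hDE libraries.

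A domain counted as kept where every library of a stage covered at least 50% of it with H3K4me2, and as lost where each covered under 10%. In hDE 53 of 69 were kept (76.8%, against 66.9% of all replicated intervals of 1 kb or more) and 1 was lost (APELA; 4.13% of all). In hAFE 39 were kept (56.5%, against 67.3%) and 7 lost (10.1%, against 9.40%), and in hPFE 38 were kept (55.1%, against 69.0%) and 9 lost (13%, against 11.4%). Through all 3 later stages 30 were kept (43.5%, against 51.0%). An interval of 4 kb or more remained in every library of the stage over 1 domain in hDE (0.00984% of all), none in hAFE (0.0295%) and 4 in hPFE (0.108%). In 1 hDE library only, such an interval lay over CSMD3 (6677 bp) and SETD5 (5027 bp) in replicate 1 and NFIB (4854 bp) in replicate 2.

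HES7, whose protein is an oscillating repressor of the segmentation clock (chr17:8122083-8126505), kept its width best. Its widest H3K4me2 interval measured 4423 and 4681 bp in hESC, 4800 and 4639 bp in hDE, 3872 bp in hAFE and 3300 bp in hPFE. H3K27me3 covered 77.1% and 75.4% of it in hESC, 45.2% and 72.5% in hDE, 75.7% in the hAFE library, and 69.6% and 76.3% in those of hPFE, while H3K27ac was at 0 in all 8 libraries, so both methyl marks stayed at this locus at all stages. The other domains with the widest H3K4me2 in their narrowest later library were TRA2B (2907 bp), NR4A3 (2136 bp), FLRT2 (2058 bp), EXT1 (1978 bp), ITGA1 with PELO (1865 bp), the neurofilament gene NEFL (1847 bp) and ATXN7L3B (1748 bp). Of these 8, 5 were H3K27me3 domains and 3 H3K27ac domains, near the shares of these classes among all domains (31 and 28 of 69).

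In hPFE, H3K27ac covered at least 10% of 29 and 23 of the 69 domains in replicates 1 and 2. The 4 domains still 4 kb wide in hPFE all carried H3K27ac there, and a link to width was not tested. They lay at PPP1R15B, a regulator of the eIF2α phosphatase (4609 bp; H3K27ac 19.6% and 17.4%), EXT1, a heparan sulphate polymerase (4186 bp; 57.3% and 56.2%), TRA2B (4131 bp; 20.0% and 28.5%) and TALAM1 (4000 bp; 43.8% and 46.1%). At the opposite end, 8 domains were covered least even in their best later library. EYA1 reached 17.5%, the serotonin receptor gene HTR7 21.2%, D21S2088E 27%, UGP2 32.3%, LHX4 33.3%, LRAT 35.9%, MFGE8 38.0% and DPPA4 39.4%. None of the 8 had H3K27me3 alone in hESC and 5 had H3K27ac alone, beside 31 and 28 of all 69. LHX4, with both marks, had H3K27me3 over 52.5% and 60.9% of its bases in hESC. With or without H3K27ac, H3K27me3 was called at 33 of all 69.

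After hESC, H3K4me2 covered H3K27me3 domains more than H3K27ac domains. The medians were 69.3% against 60.6% in hDE replicate 1, 72.2% against 59.7% in hDE replicate 2, 55.7% against 50.8% in hAFE and 52.1% against 49.6% in hPFE. The difference was 7.13 percentage points (SD 4.40 over n = 4 libraries) and positive in 4 of 4. An exact two-sided sign-flip test over the libraries gave p = 0.13, adjusted p = 0.13, which is the smallest that 4 libraries allow, so the design cannot reach 0.05. The same order was already there in hESC replicate 2, before differentiation, with medians of 96.3% against 89.9%. The later difference is therefore no measure of change from hESC. In hDE 29 of 31 H3K27me3 domains were kept (60.6% of all H3K27me3 intervals of 1 kb or more) and 18 of 28 H3K27ac domains (70.8% of theirs). In hAFE 18 of 31 (55.6%) and 14 of 28 (73.4%) were kept, and in hPFE 17 of 31 (52.9%) and 14 of 28 (77.1%). The class difference was -2.08 points among the 16 domains of 5 kb or more, and -1.63 points when peaks up to 500 bp apart were merged.

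This order was the reverse of that at 1 to 2 kb, but not of that at 2 to 4 kb in hDE. H3K27ac intervals of 1 to 2 kb were covered more than H3K27me3 intervals in all 4 libraries, with H3K27me3 minus H3K27ac at -8.5, -2.97, -12.3 and -19.8 points. At 2 to 4 kb the difference had the same sign as at the broad domains in hDE, with 0.06 and 1.73 points, and was -12.3 and -14.1 points in hAFE and hPFE. The class difference at the broad domains exceeded that at 1 to 2 kb by 18.0 points (SD 2.94, higher in 4 of 4 libraries, exact sign-flip p = 0.13, adjusted 0.13) and that at 2 to 4 kb by 13.3 points (SD 4.22, 4 of 4, exact p = 0.13, adjusted 0.13). Both tests were added after the values were seen. The median cover of H3K27me3 intervals in hPFE was 52.9% at 1 to 2 kb and 52.1% at the broad domains, and that of H3K27ac intervals 72.8% and 49.6%.

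**Figure D3:**
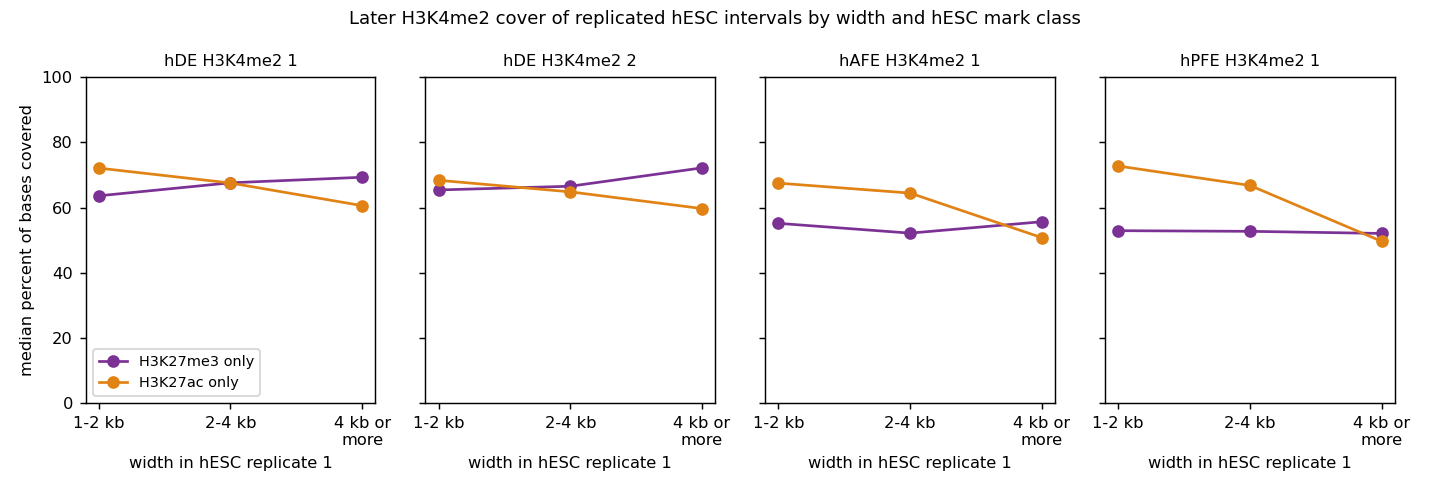
Median percent of bases covered by H3K4me2 in the 4 later libraries (panels) for replicated hESC intervals by width in hESC replicate 1, in the H3K27me3 (purple) and H3K27ac (orange) classes. The orange line is lower at greater width in each library, and the lines have crossed at 4 kb or more (in hPFE 52.1% against 49.6%).

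Over all classes the median cover of the broad domains was below that of narrower intervals in each later library, in hDE only slightly. The medians were 68.3%, 65.4%, 55.7% and 53.6% in hDE replicates 1 and 2, hAFE and hPFE, against 69.1%, 66.7%, 61.2% and 63.4% at 2 to 4 kb. The mean difference was -4.36 points (SD 4.2, lower in 4 of 4 libraries, exact sign-flip p = 0.13, adjusted 0.13). Against 1 to 2 kb it was -6.69 points (SD 6.26, lower in 4 of 4, exact p = 0.13, adjusted 0.13). In hDE the difference from 2 to 4 kb was -0.77 and -1.32 points. The share kept in hDE went the other way, at 76.8% against 67.1% at 2 to 4 kb and 66.8% at 1 to 2 kb. It was lower in hAFE (56.5% against 64.4% and 67.8%) and hPFE (55.1% against 64.5% and 69.7%). Whether the sets already differed in hESC replicate 2 cover was not tested.

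Within a domain, the spread of the later H3K4me2 was followed by class. Each domain was cut along the chromosome into 20 bins. In H3K27me3 domains the middle 10 bins were covered more than the outer 10 by 16.1 and 14.5 points in hDE, 15.5 in hAFE and 12.7 in hPFE. In H3K27ac domains the same gap was 1.59, 2.04, 6.92 and 1.53 points. In hESC replicate 2, before differentiation, the gap was 2.64 points in the H3K27me3 class and 6.76 points in the H3K27ac class, with the domain edges set by replicate 1. The later gap was thus above that of hESC replicate 2 in all 4 libraries in the first class, and in 1 of 4 (hAFE) in the second. H3K27ac in its own class went the other way and was lower in the middle than at the edges in all 8 libraries, with middle minus edges between -9.22 and -3.59 points, also in hESC. These gaps were not tested.

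**Figure D4:**
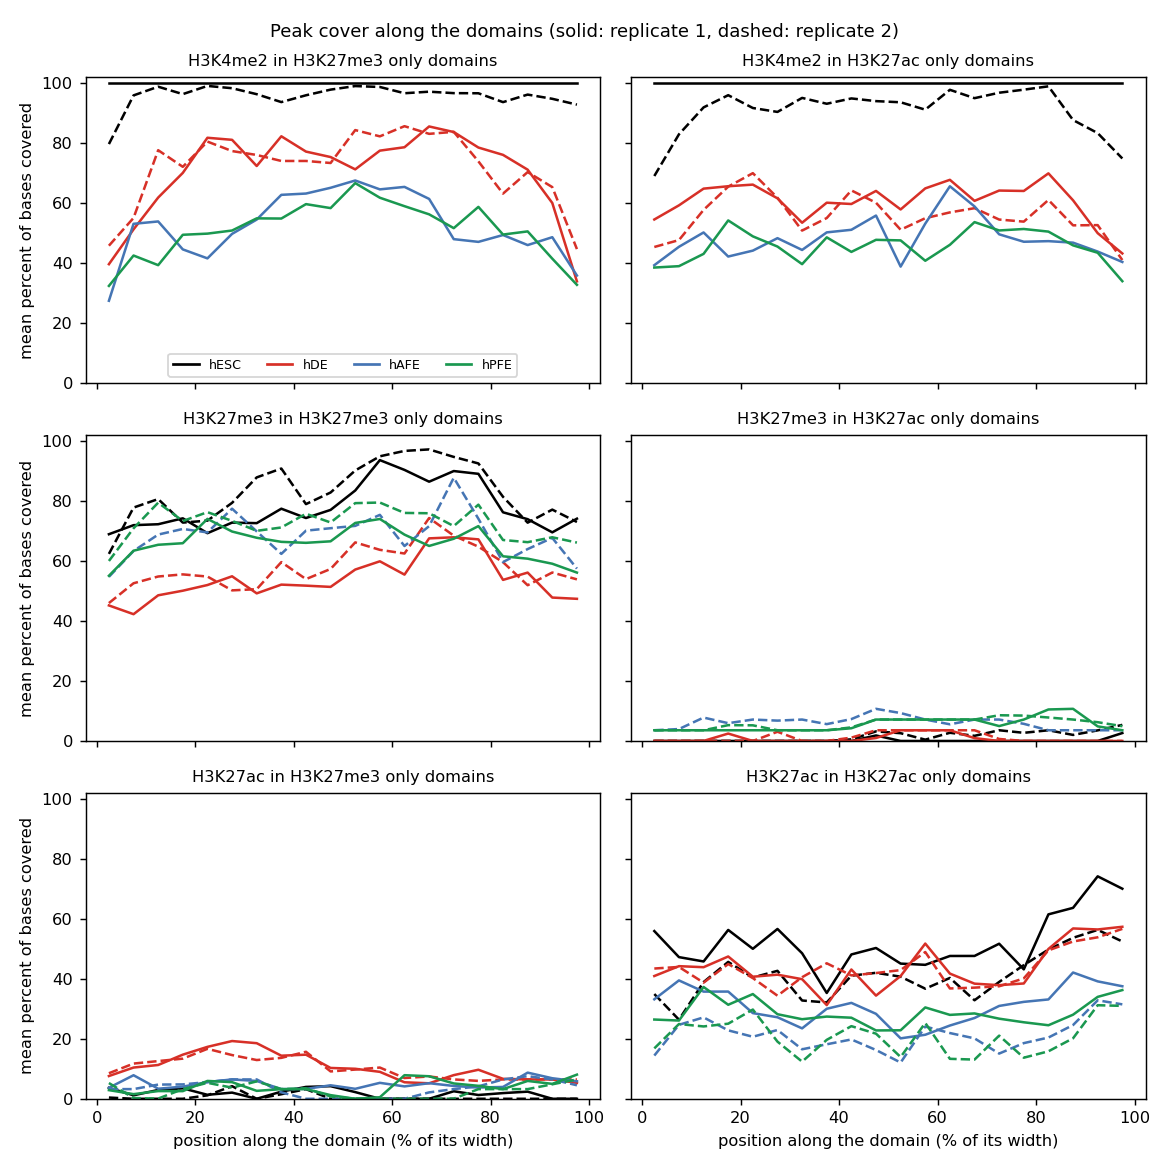
Mean percent of bases covered along the domains (position as % of domain width, in chromosome order) for each mark (rows) in H3K27me3 (left) and H3K27ac (right) domains; colours are stages, solid lines replicate 1 and dashed lines replicate 2. Later H3K4me2 is highest near the middle on the left (hDE replicate 1, 78.5% in the middle bins against 62.4% outside) and flatter on the right.

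The lysine 27 marks over all 69 domains differed between stages by more than between replicates in 5 of 6 comparisons, but the design cannot test this at 0.05. H3K27me3 covered a mean of 36.3% and 39.5% of a domain in hESC, 25.8% and 27.9% in hDE, 35.5% in the single hAFE library, and 34.6% and 37.6% in hPFE. The hDE libraries lay below the others, with -11.1 points for hDE minus hESC and 9.24 points for hPFE minus hDE (exact two-sided permutation tests of 2 against 2 libraries, p = 0.33, the smallest possible, adjusted 0.4). The hESC and hPFE libraries overlapped (difference -1.85 points, exact p = 0.667, adjusted 0.667). H3K27ac covered 24.3% and 18.4% in hESC, 27.6% and 27.1% in hDE, 17.7% and 12.0% in hAFE and 16.4% and 10.9% in hPFE. The difference was 6.0 points for hDE minus hESC, -7.71 points for hPFE minus hESC and -13.7 points for hPFE minus hDE (exact p = 0.33 each, adjusted 0.4). Single libraries moved these values: hDE minus hESC was 3.08 points without hESC replicate 2, and hPFE minus hESC -4.79 without hESC replicate 1 and -5.0 without hPFE replicate 2. The hDE H3K27ac lists were also the longest by bases, with 43.9 and 45.9 Mb against 9.59 to 31.9 Mb in the other H3K27ac lists, and the part of this in the result was not tested.

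Most H3K27me3 domains kept the mark. It was called at 24 of 31 in hDE (68.1% of all H3K27me3 intervals of 1 kb or more), 27 in hAFE (72.4%) and 28 in hPFE (63.5%). H3K27ac was called at 5 of 31 in hDE (17.0%), 3 in hAFE (6.37%) and 2 in hPFE (11.9%). The 2 in hPFE were EXT1 and HEY2. HEY2 already had 18.6% and 9.998% H3K27ac in hESC, just under the limit in replicate 2, so its class rests on that cut. The 5 in hDE were CSMD3, PCDH10, OTX2, EXT1 and the domain nearest KIZ.

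At 4 of these 5 the mark switched. PCDH10, a protocadherin gene, had 93.4% and 95.5% H3K27me3 in hESC and none in hDE, where H3K27ac covered 86.3% and 85.2%. In hPFE it was back to 72.5% and 88.4% H3K27me3 with no H3K27ac, so its switch was seen in hDE alone. CSMD3 went from 88.0% and 93.5% H3K27me3 to 0 and 8.80% in hDE, with 62.9% and 55.2% H3K27ac, and had 57.0% and 65.1% H3K27me3 in hPFE. OTX2, a homeobox gene of anterior endoderm and forebrain (chr14:56809731-56813968), went from 87.7% and 97.4% to 4.11% and 0, with 56.6% and 53.6% H3K27ac in hDE and 53.1% and 43.9% in hAFE, and had 55.9% and 69.1% H3K27me3 in hPFE. EXT1 alone kept the switch through hPFE, with H3K27me3 at 31.3% and 48.1% in hESC and 0 in all 5 later libraries. At the KIZ domain, H3K27ac of 24.3% and 49.5% in hDE stood beside H3K27me3 of 42.0% and 33.1%.

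FLRT2, which encodes a cell adhesion protein (chr14:85528639-85533019), and HEY2 had lost H3K27me3 in hPFE. In FLRT2 it went from 98.6% and 94.0% in hESC to 0 and 17.8% in hDE, 0 in hAFE and 0 and 6.76% in hPFE, while H3K4me2 stayed at 88.4% to 92.9% in the 4 later libraries. HEY2 went from 42.4% and 40.7% to 12% and 6.5% in hDE and 0 and 0 in hPFE, with 63.1% in hAFE. H3K27ac was called at FLRT2 in hAFE (20.0% and 10.5%) and at HEY2 in hPFE (15.6% and 13.5%). It was at most 20.0% at either locus at any later stage.

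H3K27ac was still called at 75% of its domains in hDE and at 57.1% in hPFE. The counts were 21 of 28 in hDE (84.9% of all H3K27ac intervals of 1 kb or more), 15 in hAFE (59.8%) and 16 in hPFE (74.0%). H3K27ac was absent, under 10% in both libraries, at 5 of 28 in hDE (10.0%), 8 in hAFE (19.3%) and 10 in hPFE (14.7%). Those without it in hPFE were APELA, GRIA4, SFRP1, DPPA4, PODXL, ZIC2, UGP2, PHLPP1, D21S2088E and the domain nearest EYA1. Of these, APELA, GRIA4, UGP2, PHLPP1 and EYA1 were already without it in hDE.

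APELA (chr4:164876615-164881297) was the domain lost in hDE by the H3K4me2 rule, and part of its cover was back in hAFE. H3K27ac covered 90.1% and 63.7% of it in hESC, 0 and 0 in hDE, 20.1% and 3.91% in hAFE and 7.28% and 0 in hPFE. H3K4me2 was listed at 0 and 5.27% in hDE, 43.9% in hAFE and 9.44% in hPFE. No H3K27me3 peak lay there in any library. DPPA4, a chromatin protein of pluripotent cells, kept H3K27ac in hDE (65.5% and 60.4% in hESC, 51.1% and 59.2% in hDE) and had no peak of any mark in hAFE or hPFE. UGP2 lost H3K27ac between hESC and hDE, from 97.1% and 95.2% to 0 and 4.22%, and kept 12.6% to 32.3% H3K4me2. PODXL kept 73.3% and 69.7% H3K27ac in hDE and had 4.63% and 0 in hPFE.

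H3K27me3 came up in few H3K27ac domains. It was called at 1 of 28 in hDE (1.02%), 3 in hAFE (3.08%) and 2 in hPFE (2.42%). GRIA4 had it in all, with 2.57% and 5.24% in hESC, 21.2% and 31.8% in hDE, 46.4% in hAFE and 44.1% and 51.5% in hPFE, while its H3K27ac was at 0 in the 6 later libraries. ZIC2, a zinc finger gene of the neural plate, had 16.6% and 13.1% H3K27ac in hESC beside 3.69% and 18.2% H3K27me3, so its class rests on 1 H3K27me3 list. It had 97.3% and 94.7% H3K27ac and no H3K27me3 in hDE and then 97.8% H3K27me3 in hAFE and 100% and 96.8% in hPFE, with H3K4me2 down from 85.8% and 83.4% in hDE to 4.73% and 8.69%. GLI2, a Hedgehog pathway factor, had 27% in hAFE and none in hPFE.

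LHX4 and SALL1, with both marks in hESC, parted. LHX4 kept H3K27me3 (52.5% and 60.9% in hESC, 100% and 98.9% in hPFE) and had no H3K27ac peak after hESC, and its H3K4me2 cover was 31.2% and 33.3% in hDE, 21.8% in hAFE and 2.84% in hPFE. SALL1 had no H3K27me3 peak after hESC, with H3K27ac of 67.0% and 62.8% in hDE and 91.7% and 84.6% in hAFE, and with 46.4% and 8.61% in hPFE it was not called there. Of the 8 domains with neither mark, 5 had H3K27ac in hDE (57.4% of all such intervals) and 4 in hPFE (44.0%), and 2 had H3K27me3 in hPFE (7.05%). TSC22D2 had H3K27ac at both stages, and HTR7 and LRAT gained H3K27me3 in hPFE, HTR7 to 72.4% and 71.7%. For HTR7, 1 hESC library had 47.7% H3K27ac and the other 0, so its class rests on 1 list.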

How the data were processed

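Peak lists from 21 chromatin immunoprecipitation libraries of H1 cells were used, and the 4 inputs entered only as controls of the lists. By the names of the deposited files, the authors removed duplicates and called each library's peaks at p 0.01 against a stage-matched input. The deposited fold enrichment (a ratio over control) was not compared between lists. As deposited, −log10 p and q values served as filters within 1 list. The submitters' processing notes give the build as hg38. Names of the aligner and of the peak caller were not given in the sources used here.

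Peaks were merged and cover computed with Python 3.11.15, NumPy 2.4.6, pandas 2.3.3 and SciPy 1.17.1, and the interval functions were tested on simulated data. Genes and promoters came from RefSeq (GRCh38.p14), with strand for 15812 of 19974 protein-coding genes. Libraries are the replicates and domains are not. Since no label ties replicates to separate cultures, a p-value here covers the spread between libraries, which may be technical. Benjamini-Hochberg adjustment covered the 5 sign-flip tests and, separately, the 6 permutation tests.

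The domains, classes and gene lists were chosen with earlier results of these data known. The genes named were the 8 widest domains of the 2 main classes, the 8 widest and the 8 least covered later, up to 8 per class that changed a mark, and list members. Others, such as LIN28B or WNT5A, were named after their values were seen. Alternatives were other width, cover, mark, keep and gene window limits, stricter peaks, merged gaps, equal list lengths, a replicate block and leaving out each library.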

Additional observations from a re-analysis of the deposited data

How the results depend on the processing

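Recomputed under 435 combinations of result and alternative, 381 values were counted as the same, 49 moved and 5 reversed, and the cause was not tested. For the tested differences, the same meant only that the sign held, since no test here could reach significance. The size of such a difference could therefore change and still be counted as the same. A width of 3 kb gave 248 domains at 160 coding genes, with H3K27ac -0.17 points from hESC to hDE in place of 6.0. A width of 5 kb gave 16 domains at 8 genes, the class difference of -2.08 points, and 0% with neither mark, lost in hDE or hAFE, or still broad in hDE or hPFE. Merging gaps of 500 bp gave 805 domains at 705 genes, 74.3% of them at a coding gene end, a class difference of -1.63 points, and 13.2%, 14.2% and 17.9% still broad in hDE, hAFE and hPFE. With replicate 2 as the base there were 114 domains at 72 genes, 76.3% with H3K27me3 alone, 12.3% with H3K27ac alone and 3.51% with neither, 63.2% were kept in hDE, and H3K27ac was 0.82 points higher in hPFE than in hESC in place of -7.71.

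Asking for 4 kb in both replicates, an alternative added after the data were seen, left 30 domains at 18 genes, a class difference of 16.1 points, and 0% with both marks, lost in hDE, or with H3K27ac in hPFE in the H3K27me3 class. H3K27me3 was then 1.29 points higher in hPFE than in hESC in place of -1.85. Peaks with −log10 p of 5 or more left 23.2% with neither mark and 59.4% and 40.6% kept in hDE and hAFE, and −log10 q of 2 or more 21.7%, 62.3% and 43.5%. A mark called from 1 bp gave 10.1% both and 4.35% neither, with H3K27ac in hAFE at 73.3% and H3K27me3 in hDE at 0% of the H3K27ac class. Called from 25% of bases, 20.3% had H3K27ac alone and 33.3% neither, and in the H3K27ac class H3K27ac in hPFE was called at 28.6% and H3K27me3 in hDE and hPFE at 0%. Kept at 25% of bases gave 91.3%, 84.1% and 81.2% in hDE, hAFE and hPFE, and at 75% of bases 30.4%, 17.4% and 24.6%. A gene window of 500 bp put 44.9% of domains at a coding gene end, and 2500 bp 79.7%.

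Leaving out 1 library at a time left the class difference at 5.11 to 8.69 points, the share with H3K27me3 alone at 40.6 to 46.4%, with H3K27ac alone at 37.7 to 46.4%, with both at 2.9 to 7.25% and with neither at 5.8 to 11.6%. Both was highest and neither lowest without hESC H3K27ac replicate 2. H3K27ac differed by 3.08 to 8.92 points from hESC to hDE and -10.6 to -4.79 from hESC to hPFE, and H3K27me3 by -3.47 to -0.22 from hESC to hPFE, nearest 0 without hESC H3K27me3 replicate 2. In hDE 2.9% were still broad without replicate 1 and 4.35% without replicate 2, and 2.9% were lost without replicate 1. H3K27ac in hPFE was called at 3.57 to 12.9% of the H3K27me3 class, highest without hPFE H3K27ac replicate 2, and H3K27me3 at 3.85 to 12.5% of the H3K27ac class, highest without hESC H3K27ac replicate 2. With the replicate number as a block, the H3K27me3 difference between hESC and hDE was -11.1 points with exact p = 0.5, the smallest 2 pairs allow, and the other 5 comparisons also kept their sizes with p = 0.5. The labels do not say that a number marks a shared culture, and the differences between replicates correlated at r of 0.04 to 0.18 across domains, so no pairing was assumed. Peak lists without read counts set no interval for cover, and later stages with 1 H3K4me2 library have no replicate check.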
